A study of Mus musculus with 17 samples.

Results

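Gene expression of Ly6C low and Ly6C high macrophages taken from injured muscle 2 days after injury was compared. The comparison rests on 6 of the 17 samples of the series, 3 sorted as Ly6C high and 3 as Ly6C low. Both groups came from male DBA/2J mice, 3 months old, on day 2 after cardiotoxin injection of a shin muscle, the tibialis anterior. Cardiotoxin, a peptide of snake venom, destroys the fibres and leaves them to regrow. Every group here came from injured mice, and uninjured muscle was not analysed here. The other groups were neutrophils (D1, 2 samples) and macrophages sorted as Ly6C high on D1 and D4 or as Ly6C low on D4 (3 samples each). Here D1, D2 and D4 stand for days after injury. The labels do not say which surface markers other than Ly6C set the sort, or whether 1 mouse or several gave a sample.

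The deposited table gives each gene 1 value per group, which is the authors' mean on a log2 scale of normalised reads, and none for single samples. A difference is the D2 Ly6C low value minus the D2 Ly6C high value, on the log2 scale. No test, standard deviation or p-value can be had from 1 value per group, so no difference below has a replicate check. Genes were compared when they had a log2 value of at least 5 in 1 of the 2 columns, which 11482 of 38087 genes had. At that value a library held 49.98 to 77.6 reads of the gene, by the worth of 1 read recovered from the low values of each column. The 95% interval for counting error alone was then ±0.30 around a difference, and ±0.07 at a value of 9. It is given after ± for single genes and leaves out variation between samples. Just inside the limit were Dok4 (4.82 in Ly6C high, 5.0001 in Ly6C low) and Gemin6 (3.94 and 5.003), and just outside it was Vwa1 (4.9992 and 1.97).

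Monocytes with high surface Ly6C leave the blood and enter injured muscle, where they clear dead fibres and release inflammatory cytokines. Within days they lose Ly6C and become macrophages that take up dying cells and secrete factors for regrowth, and macrophages in tissues can also divide. A cell that starts to divide first loads the Mcm helicase onto its DNA, copies the DNA in S phase, and then builds the spindle and separates its chromosomes in mitosis. PPARγ, a nuclear receptor for lipids encoded by Pparg and named in the title of the series, drives lipid uptake genes in macrophages.

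Of the 11482 genes, 426 were at least 2-fold higher in Ly6C low cells (3.71%) and 463 at least 2-fold lower (4.03%), which together made 889 (7.74%). The median difference was -0.03, and the middle of the distribution, from the first to the third quartile, ran from -0.26 to 0.25. Differences of 4-fold or more were seen for 63 genes in the higher direction and for 137 in the lower. A gene near the limit could be compared because of the group in which it was high, and 189 of the higher and 185 of the lower genes were under 5 in the other column. With 5 required in both columns, 237 genes were higher and 278 lower of 10724. Protein-coding genes made up 9986 of the genes compared, with 410 higher and 424 lower. Processed pseudogenes made up 1023, with 8 and 5. Of 74 lincRNAs, long RNAs with no known protein, 2 were higher and 12 lower. One of these, AC136976.2, named after its values were seen, was at 7.72 in D2 Ly6C high cells and listed at 0 in D2 Ly6C low cells and in both D4 columns.

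**Figure D1:**
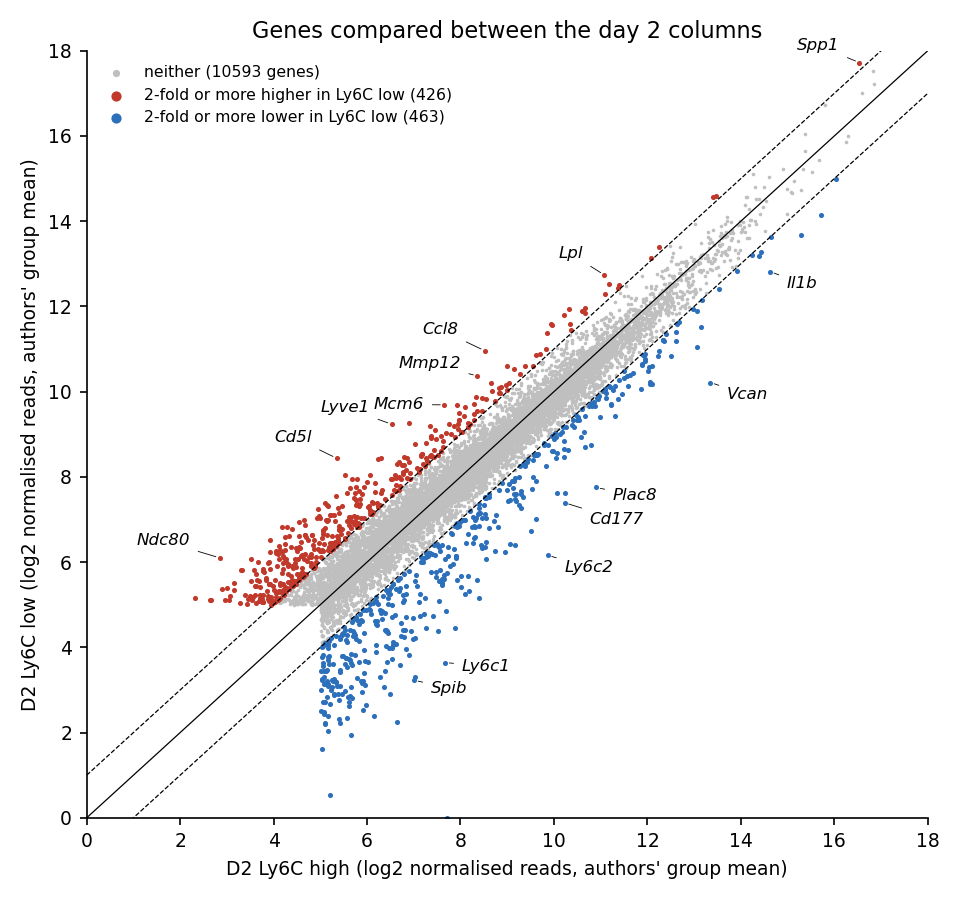
Log2 normalised reads of the 11482 genes compared (authors' group means, 1 point per gene), D2 Ly6C high on the horizontal axis and D2 Ly6C low on the vertical axis, with the line of equality and 2-fold limits (dashed). Cd5l, Lyve1, Ccl8 and Ndc80 lie above the upper limit and Ly6c2, Plac8, Vcan and Spib below the lower one, while 10593 genes lie between the limits.

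The Ly6c genes differed in the direction of the sort. Ly6c2 (chr15:75108158-75111970, GRCm38, minus strand), which encodes the Ly6C antigen with its paralog Ly6c1, was at 9.87 in D2 Ly6C high cells and at 6.16 in D2 Ly6C low cells, a difference of -3.71 ± 0.14 or 13.1-fold. Ly6c1 was at 7.67 and 3.64, a difference of -4.03 ± 0.33. The paralogs are alike in sequence, so their reads may have been shared in the counting. Both genes were far apart, but Ly6c2 was still at 6.16 in the column labelled Ly6C low, where on D4 it was at 4.64. Csf1r, the receptor for the macrophage growth factor CSF1, was at 13.52 in D2 Ly6C high and 13.31 in D2 Ly6C low cells. The direction of that small difference turned with quantile normalization (0.02). Emr1, the table's symbol for the gene of the macrophage antigen F4/80, was at 12.51 and 13.06. Ly6g, the defining surface marker of neutrophils, was listed at 0 in both columns. Csf1r and Emr1 were thus high in both columns and less than 2-fold apart. The D1 neutrophil column held them at 13.27 and 12.22, so their level here does not set macrophages apart from sorted neutrophils.

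Of the 27 classical monocyte markers found in the table, 26 were compared, with 18 lower, 0 higher and a median difference of -1.58. With 5 required in both columns, 14 of 22 were lower and the median was -1.20. Plac8, a cysteine-rich protein of blood leukocytes, was at 10.90 in Ly6C high and 7.75 in Ly6C low cells (-3.15 ± 0.08). Vcan, the matrix proteoglycan versican that monocytes secrete, was at 13.35 and 10.22 (-3.13 ± 0.04). These were 8.90-fold and 8.76-fold apart, close to Ly6c2 among the genes furthest below. Ifitm6, of the interferon-induced transmembrane family, was at 8.398 and 5.16 (-3.24 ± 0.20). Cd177, a surface glycoprotein of neutrophils and monocytes, was at 10.23 and 7.39 (-2.84 ± 0.09). The chemokine receptor Ccr2, which draws monocytes out of the bone marrow, was less than 2-fold apart, at 12.08 and 11.35. At the other end of the list, Msrb1 was at 10.37 and 10.38 and the coagulation factor subunit gene F13a1 at 14.21 and 14.02. Monocyte genes thus ranged from 16.3-fold apart (Ly6c1) to level. Ly6c1 and Ly6c2 are in this list and encode the antigen of the sort, so their direction is no separate result. Apart from them, Ifitm6 was furthest, at 9.45-fold. Of 20 genes of patrolling monocytes, which are Ly6C low in blood, 6 were lower in the Ly6C low cells and 0 higher. With 5 required in both columns 2 of 15 were lower, and after quantile normalization Cd36 was higher (1.07). Ace was at 7.53 in Ly6C high and 4.396 in Ly6C low cells, and Itgal, the integrin chain of LFA-1, at 10.06 and 7.63.

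Markers of resident and repair macrophages were the counterpart. Of 34 found, 29 were compared, with 15 higher, 3 lower and a median difference of 1.11. The median was 1.12 over the 26 members at 5 or above in both columns. Cd5l (chr3:87357881-87371073, plus strand), a secreted scavenger protein that inhibits apoptosis, was at 5.35 in Ly6C high and 8.44 in Ly6C low cells (3.09 ± 0.20, 8.50-fold). Lyve1, a hyaluronan receptor of resident macrophages and lymphatic vessels, was at 6.53 and 9.24 (2.71 ± 0.14). Ccl8, a chemokine of resident-type macrophages, was at 8.52 and 10.96 (2.44 ± 0.07). Igf1, a growth factor for muscle fibres, was at 6.90 and 9.26 (2.36 ± 0.12). These were the 4 furthest above once genes under the median level of the Ly6C low column were set aside. Folr2, a folate receptor of resident macrophages, was at 9.86 and 11.38, Siglec1, a sialic acid receptor, at 7.86 and 9.20, and Cd163, the receptor for haemoglobin bound to haptoglobin, at 10.34 and 11.59. Spp1, which encodes osteopontin, was at 16.54 and 17.72, and its difference of 1.19 was 0.51 after quantile normalization of the columns, which ends its 2-fold call. The mannose receptor Mrc1 was at 14.33 and 14.53, less than 2-fold apart. The 3 lower members were the lectins Cd209d (5.41 and 3.09) and Cd209a (7.601 and 5.52) and the chemokine Ccl24 (10.38 and 9.22).

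**Figure D2:**
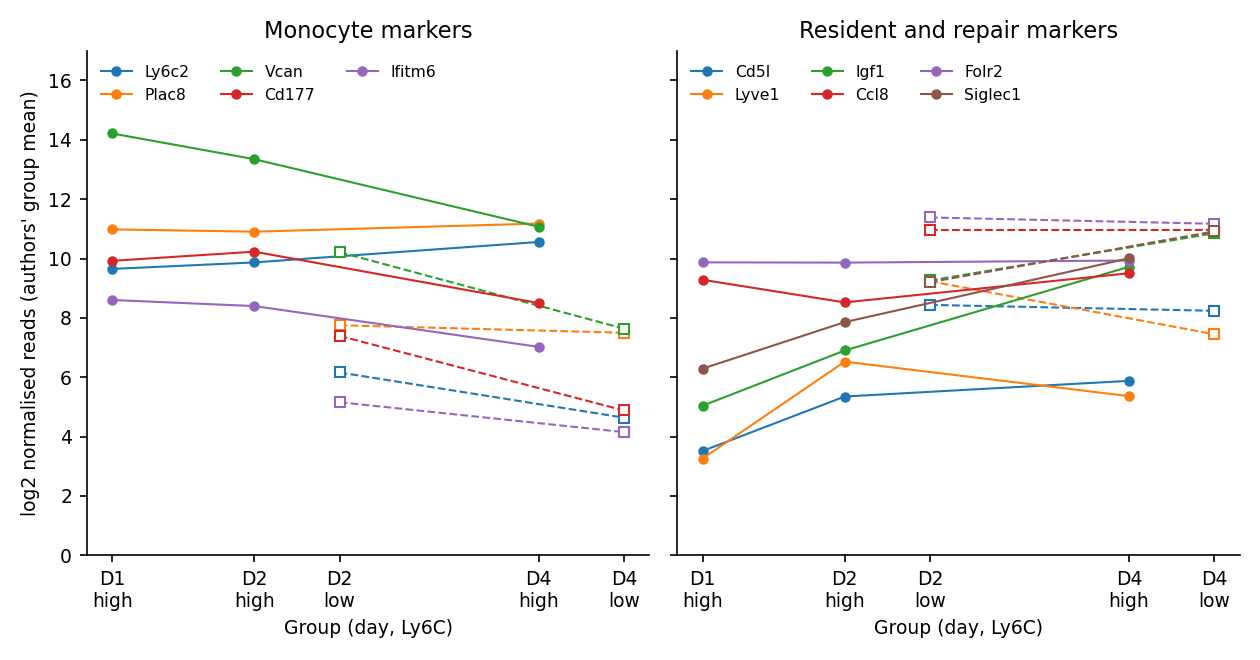
Group means of log2 normalised reads, as the authors gave them (vertical axis), for 5 monocyte markers and 6 resident and repair markers in the 5 macrophage columns (horizontal axis), with filled circles for Ly6C high, open squares for Ly6C low and no error bars because there is 1 value per group. On each day with both columns every monocyte marker shown lies lower in Ly6C low cells, for example Plac8 at 7.75 against 10.90 on D2, and every resident marker shown lies higher, for example Cd5l at 8.44 against 5.35.

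Genes of macrophage identity had a median of -0.10, with 27 of 32 compared within 2-fold. The 5 beyond it, 1 higher and 4 lower, made up 15.6% of the list, against 7.74% of all genes. The higher gene was the transcription factor Bhlhe41 (7.47 in Ly6C high, 8.89 in Ly6C low). The lower genes were Spic, a factor of red pulp macrophages (7.03 and 5.55), the inhibitors of differentiation Id1 (5.70 and 4.27) and Id3 (8.53 and 7.12), and the endotoxin co-receptor Cd14 (16.03 and 14.996). After quantile normalization the median was 0.03 and Cd14 was under 2-fold, at -0.87. Pparg was at 7.93 in Ly6C high and 8.14 in Ly6C low cells, a difference of 0.21 ± 0.10. Among the 10 growth factor receptors and ligands of the CSF family compared, 0 were higher and 2 lower (20%, against 4.03% of all genes). These were Csf2rb, the shared chain of the GM-CSF receptor (13.53 and 12.40), and Flt3 (6.32 and 4.66). Quantile normalization left Flt3 alone beyond 2-fold, with Csf2rb at -0.93. The related chains Csf2ra and Csf2rb2 differed by -0.92 and -0.90. The other members, Csf3, Kit, Csf1r, Csf1, Il3ra and Csf3r, lay between -0.65 and 0.06.

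Genes of the cell cycle held the most members that were higher in Ly6C low cells, and those of DNA replication and of mitosis are described in turn. Before replication, the origin recognition complex, Cdc6 and Cdt1 place a ring of Mcm2 to Mcm7 on the DNA, and E2F transcription factors are known to drive these genes at the start of S phase. Of 68 genes of DNA replication and licensing found, 64 were compared. Of these, 28 were at least 2-fold higher and 0 lower, against 3.71% and 4.03% of all genes, with a median difference of 0.92. With 5 required in both columns, 17 of 53 were higher and the median was 0.81.

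The Mcm2 to Mcm7 ring was higher in 5 of its 6 subunits. Mcm6 was at 7.66 in D2 Ly6C high and 9.69 in D2 Ly6C low cells (2.03 ± 0.10, 4.10-fold). Mcm5 was at 7.97 and 9.49 (1.52 ± 0.09), Mcm7 at 6.53 and 7.96 (1.43 ± 0.15), Mcm2 at 7.96 and 9.34 (1.37 ± 0.09) and Mcm3 at 8.29 and 9.47 (1.18 ± 0.08). Mcm4 was at 8.38 and 9.21 (0.83 ± 0.08), under 2-fold. The subunits are held in equal numbers in the ring, and their differences ran from 0.83 to 2.03. Short E2F motifs, TTCCCGC and TTGGCGC on either strand, stand in the promoters of 4 of them, which are printed to show where. Mcm4 had no promoter entry, so it was not searched. The sequences are those of RefSeq on GRCm38.p6, from 250 bases before to 50 after the start site, with motif matches in capitals.
Mcm3 (chr1:20820263-20820562, minus strand): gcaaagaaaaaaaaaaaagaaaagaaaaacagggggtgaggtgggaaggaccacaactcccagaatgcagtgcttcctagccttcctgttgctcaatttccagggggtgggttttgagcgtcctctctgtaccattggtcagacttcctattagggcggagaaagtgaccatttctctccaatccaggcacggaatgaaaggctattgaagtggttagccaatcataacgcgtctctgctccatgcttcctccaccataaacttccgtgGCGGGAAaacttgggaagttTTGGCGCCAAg
Mcm5 (chr8:75109259-75109558, plus strand): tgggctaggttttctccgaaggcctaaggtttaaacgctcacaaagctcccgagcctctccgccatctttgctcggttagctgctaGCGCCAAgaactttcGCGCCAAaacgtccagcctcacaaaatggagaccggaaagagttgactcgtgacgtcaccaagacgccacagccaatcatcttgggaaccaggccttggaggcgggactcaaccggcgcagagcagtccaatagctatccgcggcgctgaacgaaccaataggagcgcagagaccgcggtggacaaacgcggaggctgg
Mcm6 (chr1:128359656-128359955, minus strand): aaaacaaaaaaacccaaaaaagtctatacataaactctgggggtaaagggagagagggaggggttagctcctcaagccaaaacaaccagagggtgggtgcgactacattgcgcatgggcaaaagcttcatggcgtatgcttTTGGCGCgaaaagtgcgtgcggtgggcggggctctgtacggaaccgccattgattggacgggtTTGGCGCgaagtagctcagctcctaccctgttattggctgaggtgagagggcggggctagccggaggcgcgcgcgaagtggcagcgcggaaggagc
Mcm7 (chr5:138171834-138172133, minus strand): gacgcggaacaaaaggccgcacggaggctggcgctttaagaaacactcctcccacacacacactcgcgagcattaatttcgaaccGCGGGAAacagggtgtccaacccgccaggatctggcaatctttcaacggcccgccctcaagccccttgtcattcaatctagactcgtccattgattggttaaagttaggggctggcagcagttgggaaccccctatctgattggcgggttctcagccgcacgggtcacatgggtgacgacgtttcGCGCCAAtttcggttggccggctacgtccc
Counted from the start site, with bases before it negative, the matches began at -109 and -46 in Mcm6, at -164 and -149 in Mcm5, at -165 and 21 in Mcm7, and at 20, 40 and 43 in Mcm3, the last pair overlapping. The motifs stood in 29 of 56 promoters of the replication list with an entry (51.8%), in 12.9% of the 8120 promoters of genes compared and in 8.25% of all 20592. Within the list, 15 of the 28 members compared with a motif were 2-fold higher, with a median of 1.18, and 9 of 26 without one, with a median of 0.64. A match is a run of letters and was not tested for binding.

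Other parts of the replication machinery were higher to differing degrees. Of the origin recognition complex, Orc1, its regulated subunit, was at 4.18 in Ly6C high and 5.29 in Ly6C low cells, while Orc2 to Orc6 differed by -0.05 to 0.46. With 5 added to each value Orc1 differed by 0.92, under 2-fold. Orc1, and below Pole, Pole2, Rfc4, Gins1, Clspn and Mcm10, passed the limit in the Ly6C low column alone. The loading factor Cdt1 was level, at 9.67 and 9.59. DNA polymerase alpha and its primase had 2 of 4 subunits higher, with Pola1 at 6.17 and 7.86 and Prim1 at 5.06 and 6.65. DNA polymerase epsilon also had 2 of 4, the catalytic subunit Pole (4.68 and 6.64) and Pole2 (4.26 and 5.99), while its small subunits Pole3 and Pole4 differed by 0.31 and -0.18. DNA polymerase delta had 0 of 4, from -0.45 for Pold4 to 0.94 for Pold1. Of replication factor C, which loads the sliding clamp, 1 of 5 subunits was higher (Rfc4, 4.80 and 5.98). Of the 4 GINS subunits 3 were compared, and Gins1 was higher (4.83 and 6.65). Both large subunits of the histone chaperone CAF-1 were higher, Chaf1a at 5.21 and 7.11 and Chaf1b at 5.25 and 6.62. The clamp's binding partner 2810417H13Rik had the largest difference of the list, at 5.10 and 7.39 (2.29 ± 0.23). Clspn, the checkpoint mediator claspin, was at 4.05 and 6.26, Mcm10 at 4.24 and 6.28, the ligase Lig1 at 7.03 and 8.77, Uhrf1, which passes DNA methylation to the new strand, at 6.65 and 8.30, and the topoisomerase Top2a at 7.35 and 9.19.

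Enzymes that supply nucleotides followed for a few members. Among the 37 of them at the limit or above it, 6 were higher and 0 lower (16.2% beyond 2-fold, against 7.74% of all genes, median 0.29). Ribonucleotide reductase, which makes deoxynucleotides, had both main subunits higher, Rrm2 at 5.76 in Ly6C high and 7.76 in Ly6C low cells and Rrm1 at 7.95 and 9.25. Enzymes that lead to thymidylate were also among the 6, with Tyms at 4.86 and 6.52 and Dut at 5.32 and 6.96, as was Prps2 (7.19 and 8.29). Ctps, Adss and Prps1, of pyrimidine and purine synthesis, differed by 0.00, 0.01 and -0.01. The thymidine and thymidylate kinases Tk1 and Dtymk differed by 0.83 and 0.68, under 2-fold. Of 45 genes of homologous recombination and repair found, 36 were compared, with 15 higher, 0 lower and a median of 0.83. With 5 in both columns, 4 of 24 were higher, with a median of 0.53. Fancd2, of the Fanconi anaemia pathway, was at 2.33 and 5.17, and the glycosylase Neil3 at 2.65 and 5.11. Both were under the limit in Ly6C high cells and near it in Ly6C low cells.

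Mitosis genes had a larger median difference than replication genes. Of 86 genes of mitosis and G2/M found, 75 were compared, with 55 higher, 1 lower and a median of 1.77. Many passed the limit in the Ly6C low column alone. With 5 required in both, 22 of 41 were higher and the median was 1.09, and with a value of 1 in either column 65 of 86 were, with a median of 1.80. Ndc80, of the complex that ties kinetochores to the spindle, was at 2.85 in D2 Ly6C high and 6.10 in D2 Ly6C low cells (3.25 ± 0.48). All 4 subunits of that complex were higher, by 1.84 to 3.25. The spindle checkpoint kinase Bub1 was at 4.19 and 6.81 (2.63 ± 0.31). Ube2c, which works with the anaphase-promoting complex, was at 3.92 and 6.52 (2.59 ± 0.34), and Nusap1, which bundles microtubules, at 4.29 and 6.83. The kinesins Kif2c (3.31 and 5.82) and Kif11 (4.66 and 6.99) followed. Of condensin, which compacts chromosomes, 4 of 5 subunits were higher, with differences from 0.62 (Smc4) to 2.39 (Ncapg). Mki67, which encodes the proliferation antigen Ki-67, was at 8.87 and 10.12 (1.25 ± 0.07). The 1 lower gene was Lmnb1, of the nuclear lamina (11.57 and 10.37). Bub3, the histone gene H2afz and Hmgb2, which are also used outside mitosis, differed by 0.23, -0.06 and -0.04.

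Many genes of mitosis are known to carry the cell cycle genes homology region (CHR) near the start site, where the MuvB complexes bind. TTTGAA or TTCGAA on either strand stood in 48 of 71 promoters of the list (67.6%), against 13.6% of those of genes compared and 18.4% of all. The promoters of 3 of the genes named above hold 1 match each, shown in capitals in the RefSeq sequences on GRCm38.p6.
Bub1 (chr2:127831810-127832109, minus strand): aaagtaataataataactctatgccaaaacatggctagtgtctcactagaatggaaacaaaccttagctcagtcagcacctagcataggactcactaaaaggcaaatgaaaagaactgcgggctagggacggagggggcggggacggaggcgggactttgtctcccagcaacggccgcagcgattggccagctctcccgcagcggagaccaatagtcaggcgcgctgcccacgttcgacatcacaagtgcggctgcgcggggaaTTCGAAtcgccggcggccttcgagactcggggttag
Ube2c (chr2:164769679-164769978, plus strand): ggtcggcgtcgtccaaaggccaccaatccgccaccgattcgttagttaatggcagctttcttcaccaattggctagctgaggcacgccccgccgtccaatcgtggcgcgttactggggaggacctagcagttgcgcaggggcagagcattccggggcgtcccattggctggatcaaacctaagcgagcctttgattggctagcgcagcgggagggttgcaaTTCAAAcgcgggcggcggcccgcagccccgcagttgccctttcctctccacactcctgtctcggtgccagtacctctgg
Kif11 (chr19:37376132-37376431, plus strand): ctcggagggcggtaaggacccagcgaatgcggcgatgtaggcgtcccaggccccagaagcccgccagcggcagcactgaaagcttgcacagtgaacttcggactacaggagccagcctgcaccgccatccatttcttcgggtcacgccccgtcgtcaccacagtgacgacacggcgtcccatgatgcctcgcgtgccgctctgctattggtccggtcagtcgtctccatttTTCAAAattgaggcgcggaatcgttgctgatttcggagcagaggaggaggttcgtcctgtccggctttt
The match began at -29 from the start site in Ube2c, at -19 in Kif11 and at 15 in Bub1. Of the 43 members compared with a match, 34 were higher, with a median of 1.81, and of 18 without one 12 were, with a median of 1.77. CCAAT stood in 49 of the 71 promoters (69.0%), against 38.8% of those of genes compared. Members with and without a CHR match had medians 0.04 apart, and those of the replication list with and without an E2F motif were 0.54 apart. Whether either motif bears on the differences was not tested.

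Across the 5 macrophage columns replication and mitosis genes peaked at different points. Of the 64 replication genes, 48 (75%) had their highest value in D2 Ly6C low cells and 8 in D4 Ly6C low cells. Of the 75 mitosis genes, 7 had their highest value in D2 Ly6C low and 64 (85.3%) in D4 Ly6C low cells. Over all 11482 genes these shares were 18.7% for D2 Ly6C low and 26.1% for D4 Ly6C low, and over the 426 higher genes 30.0% and 65.5%. The 426 were chosen for a D2 Ly6C low value above that of D2 Ly6C high. None of them could peak in D2 Ly6C high, so their shares are no separate result. In Ly6C high cells Mcm6 was at 6.16, 7.66 and 8.20 on D1, D2 and D4, and its Ly6C low values were 9.69 and 8.96 on D2 and D4. Mcm5 was at 6.94, 7.97 and 8.19, and at 9.49 and 8.76. Bub1 was at 2.72, 4.19 and 6.15 in the former, and at 6.81 and 7.59 in the latter. The 6 helicase genes were thus lower in Ly6C low cells of D4 than of D2, and Bub1 was higher. Over the D4 columns the median Ly6C low minus Ly6C high difference of the replication genes was 0.29 and that of the mitosis genes 1.06, against 0.92 and 1.77 on D2. Nucleotide supply (16 of 37) and homologous recombination (18 of 36) also had more members highest in D2 Ly6C low than in any other of the 5 columns. Whether the day 2 and day 4 columns differ beyond the spread of samples cannot be tested.

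**Figure D3:**
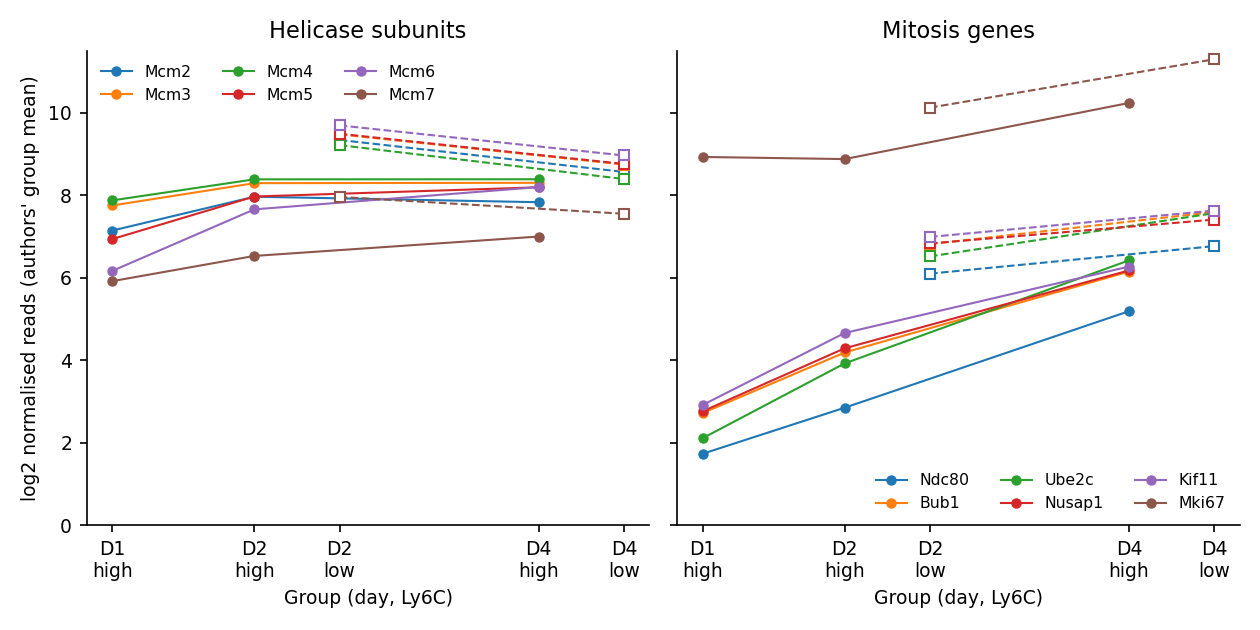
Group means of log2 normalised reads, as the authors gave them (vertical axis), for the 6 helicase subunits and of 6 mitosis genes in the 5 macrophage columns (horizontal axis), with filled circles for Ly6C high, open squares for Ly6C low and no error bars because there is 1 value per group. The helicase subunits are highest in D2 Ly6C low cells (Mcm6 at 9.69), and the mitosis genes in D4 Ly6C low cells (Bub1 at 7.59).

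Upstream of S phase the picture was mixed. The 36 cyclins, inhibitors and other genes of G1 control had 3 higher members, 3 lower ones and a median of 0.10. That is 16.7% beyond 2-fold, against 7.74% of all genes. Ccnd1, which encodes the growth factor-induced cyclin D1, was at 8.29 in Ly6C high and 9.72 in Ly6C low cells (1.42 ± 0.08), while Ccnd2 and Ccnd3 differed by -0.33 and -0.30. Ccne1, the cyclin E that starts S phase, was at 4.36 and 6.35 (1.99 ± 0.30). The third was Rbl1, the pocket protein p107 (6.78 and 8.12). The 3 lower genes restrain growth. They were the CDK inhibitor Cdkn1b, which encodes p27 (9.44 and 8.43), and the Myc antagonists Mxi1 (11.70 and 10.43) and Mxd1 (12.98 and 11.94). After quantile normalization Mxi1 alone was lower by 2-fold, with Mxd1 at -0.87 and Cdkn1b at -0.96. The retinoblastoma gene Rb1 was at 10.14 in both. Of 33 targets of p53 and genes of apoptosis compared, 0 were higher and 2 lower (6.06%, against 4.03% of all genes). The 2 were the BH3-only genes Pmaip1 (9.57 and 8.51) and Bcl2l11 (11.51 and 10.48), the latter at -0.87 after quantile normalization.

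**Figure D4:**
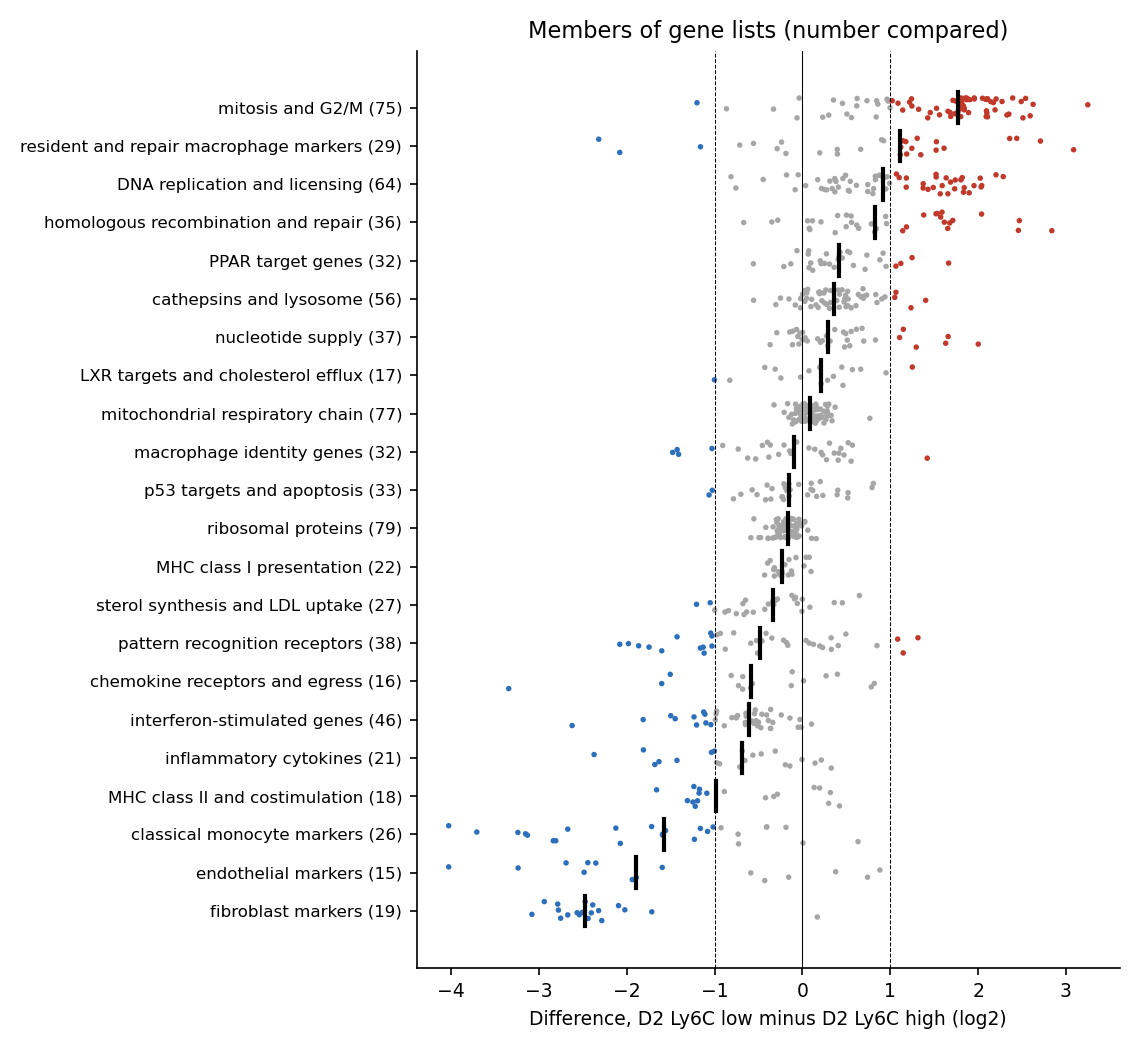
Difference between D2 Ly6C low and D2 Ly6C high (horizontal axis, log2) of each member compared in 22 gene lists (vertical axis, number of members in brackets), 1 point per gene, with red for 2-fold higher, blue for 2-fold lower and a black bar at the median. Medians run from -2.47 for fibroblast markers to 1.77 for mitosis genes, and ribosomal proteins and the respiratory chain, with 79 and 77 members, hold 0 genes beyond 2-fold.

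Genes for taking up dead cells had members beyond 2-fold in both directions. The 3 chain genes of C1q, the complement protein that coats dying cells and that macrophages make, were apart to a like degree. C1qa was at 10.22 in Ly6C high and 11.80 in Ly6C low cells, C1qb at 9.97 and 11.58 and C1qc at 9.94 and 11.59, with differences of 1.58 to 1.65. Other complement genes went the other way. C3 was at 12.09 and 10.61, Cfb at 7.498 and 6.42, Gpr77, the second C5a receptor, at 6.08 and 4.78, and the C1 inhibitor Serping1 at 5.62 and 2.71. The fourth higher gene was the complement regulator Cd59a (4.76 and 6.13). In all, 4 of the 19 complement genes compared were higher and 4 lower, and with 5 in both columns 3 and 2 of 15. Apoptotic cell uptake had 29 genes compared, of which 3 were higher and 1 lower (median -0.01, and 0.13 after quantile normalization). That is 13.8% beyond 2-fold, against 7.74% of all genes. Gas6, the bridge between phosphatidylserine and its receptors, was at 10.33 and 11.94 (1.61 ± 0.04), the scavenger receptor Stab1 at 13.40 and 14.58 and the bridging protein Mfge8 at 7.13 and 8.19. Of the receptors for Gas6, Axl was at 7.79 and 6.68 and Mertk at 8.98 and 9.55. The ligand and Axl were thus apart in opposite directions.

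Lysosome genes shared a small shift. Of 56 compared, 4 were 2-fold higher and 0 lower, or 7.14% beyond 2-fold against 7.74% of all genes. Yet 49 were above 0, with a median of 0.36 against -0.03 over all genes. Atp6v0d2, a proton pump subunit, was at 8.45 in Ly6C high and 9.85 in Ly6C low cells. The higher members included the hydrolases Arsb (9.38 and 10.61) and Lipa (11.36 and 12.42). The protease gene Ctsd was at 15.80 and 16.73, under 2-fold. On D4 the median over the same genes was 0.55. Of 30 genes of iron and heme handling compared, 3 were higher and 2 lower (16.7% beyond 2-fold, against 7.74% of all genes). Besides Cd163, the higher ones were the transferrin receptor Tfrc (9.27 and 10.41) and the iron exporter Slc40a1 (5.05 and 6.27), and the lower ones Spic and the iron-binding lipocalin Lcn2 (5.93 and 3.94). Hmox1, which degrades heme, was at 13.30 and 13.75.

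Most genes of lipid handling were within 2-fold. The shares beyond it were 12.5% of PPAR targets, 11.8% of LXR targets and 7.41% of sterol genes, against 7.74% of all genes. Of 40 PPAR target genes found, 32 were compared, with 4 higher, 0 lower, 28 above 0 and a median of 0.41. Lpl, lipoprotein lipase, was at 11.08 in Ly6C high and 12.74 in Ly6C low cells (1.66 ± 0.03). The fatty acid binding proteins Fabp5 (11.38 and 12.50) and Fabp3 (5.20 and 6.45) and the acid lipase Lipa were the other higher members. Fabp4, a gene often used as a readout of PPARγ, was at 9.19 and 10.07 on D2 and, on D4, at 11.16 in Ly6C high and 9.21 in Ly6C low cells, and it is also an endothelial gene. Cd36, which takes up fatty acids and oxidised lipoprotein, was at 13.02 and 13.93 on D2. Of 17 LXR targets and genes of cholesterol efflux, 1 was higher, the phospholipid transfer protein Pltp (9.62 and 10.87), and 1 lower, Il1rn (14.64 and 13.64), which lay at the 2-fold limit and was at -0.94 after quantile normalization. Abcg1, a cholesterol exporter, was then also higher by 2-fold (1.01). Sterol synthesis and uptake leaned the other way, with 0 of 27 higher, 2 lower and 23 below 0 (median -0.34). The demethylase Cyp51 (9.10 and 7.89) was lower. Srebf2, the transcription factor of these genes, was at 11.03 and 10.18.

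Among inflammatory cytokine genes the members beyond 2-fold were lower in Ly6C low cells. Of 21 compared, 7 were lower and 0 higher, with a median of -0.69. Il1b, interleukin 1 beta, was at 14.63 in D2 Ly6C high and 12.82 in D2 Ly6C low cells (-1.81 ± 0.02). Il6 was at 6.403 and 4.03 (-2.37 ± 0.31), Ptgs2, the cyclooxygenase that makes prostaglandins, at 13.14 and 11.51, and the EGF family ligand Areg at 9.16 and 7.48. Inhba (8.25 and 6.82), Il18 (7.15 and 6.12) and Il1rn, which blocks the interleukin 1 receptor, completed the 7. Tnf was level, at 11.55 and 11.69. Il1b was at 15.85 in Ly6C high cells of D1, above every other macrophage column, and 15 of the 21 genes were highest there. Feedback inhibitors of inflammatory signalling, with 36 compared, were also lower for 6 (16.7%, against 4.03% of all genes) and higher for 0 (median -0.58). They included the orphan receptors Nr4a2 (11.89 and 10.62) and Nr4a3 (12.34 and 11.22), the JAK inhibitor Socs1 (8.05 and 6.98) and the interleukin 10 receptor Il10ra (11.10 and 10.06). After quantile normalization 3 were lower, without Nr4a3 and Il10ra. In both lists most members were within 2-fold, 14 of 21 cytokines and 30 of 36 feedback inhibitors.

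Of 21 chemokine ligands compared, 1 was higher and 3 lower (19% beyond 2-fold, against 7.74% of all genes). The higher one was Ccl8. The lower ones were Cxcl12 (7.88 and 4.46), Ccl24 (10.38 and 9.22) and Ccl9 (14.23 and 13.22), the first of which is made mainly by stromal cells. After quantile normalization Ccl9 was at -0.81, and Pf4, platelet factor 4, was also higher by 2-fold (1.11). The monocyte attractant Ccl2 was at 12.56 and 12.55. Of 16 chemokine receptors and related genes, 3 were lower (18.8%, against 4.03% of all genes) and 0 higher. These were Ccr9 (5.99 and 2.64), the formyl peptide receptor Fpr2 (9.06 and 7.46) and the leukotriene receptor Ltb4r1 (10.06 and 8.56). Cx3cr1, which is higher on patrolling monocytes, was at 8.597 and 8.995. Of 29 adhesion genes, 5 were lower (17.2%, against 4.03% of all genes) and 0 higher. After quantile normalization the integrin chain Itga6 (1.13) and neuropilin Nrp1 (1.10) were higher. The integrin chain Itga1, which binds collagen, was at 8.95 and 6.25, and Itgb7 at 11.11 and 9.97. Itgal and Pecam1 were lower too, of which Pecam1 (7.85 and 5.96) is also an endothelial gene.

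Sensors of microbes were split, with 12 lower and 3 higher of 38 compared. Trem1, an amplifier of inflammatory signals on monocytes, was at 11.30 in Ly6C high and 9.43 in Ly6C low cells, its relative Trem3 at 7.53 and 5.55, the flagellin receptor Tlr5 at 8.72 and 6.98 and the beta-glucan receptor Clec7a at 12.61 and 11.18. The 3 higher ones were the galactose lectins Mgl2 (5.66 and 6.97) and Clec10a (9.05 and 10.19) and Tlr3 (4.19 and 5.28). With 5 in both columns 2 were higher and 12 lower of 37, and with 5 added to each value Tlr3 differed by 0.91. Among the lower genes, Cd14 (-0.87) and Clec4n (-0.86) were under 2-fold after quantile normalization. Interferon-stimulated genes had a small shift in nearly every member. Of 46 compared, 10 were lower, 0 higher and 45 below 0, with a median of -0.60. Gbp7 was the exception, at 6.86 and 6.96. Ms4a4c was at 10.24 and 7.62, Slfn1, a growth regulatory gene, at 7.91 and 6.09, and the antiviral gene Mx2 at 5.57 and 4.12. Isg15, a ubiquitin-like modifier, was at 7.97 and 6.84 (-1.13 ± 0.13), and the transcription factor Irf7 at 9.63 and 8.52. Of these 46 genes, 37 had their highest value in D4 Ly6C high cells.

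The response element for interferon (ISRE) in its common form, GAAA, then any 2 bases, then GAAA, stood on either strand in 22 of 37 promoters of this list (59.5%) and in 3.23% of those of genes compared. Isg15 is printed because its promoter holds 3 overlapping matches, in capitals in the RefSeq sequence on GRCm38.p6.
Isg15 (chr4:156200769-156201068, minus strand): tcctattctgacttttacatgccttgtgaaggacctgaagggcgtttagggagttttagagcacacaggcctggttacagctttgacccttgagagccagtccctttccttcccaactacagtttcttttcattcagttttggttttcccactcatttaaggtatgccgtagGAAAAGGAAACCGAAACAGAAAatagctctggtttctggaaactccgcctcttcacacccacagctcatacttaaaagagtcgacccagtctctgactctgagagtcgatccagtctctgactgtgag
The matches began at -78, -72 and -66 from the start site. Of 22 members compared with a match, 3 were 2-fold lower, with a median of -0.52, and of 13 without one 4 were, with a median of -0.65. Members without the element were not nearer to 0, and whether the element bears on the differences was not tested.

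The list of MHC class II and costimulatory genes had 18 members compared, of which 9 were lower in Ly6C low cells and 0 higher, with a median of -0.99 and 5 members above 0. Summed on the linear scale, the whole list took 1.02% of the Ly6C high column and 1.00% of the Ly6C low column. That sum is not a share of class II chains. Its most abundant member in Ly6C high cells, at 14.90, is outside the class II chains and chaperones, which reach 14.38 there. The invariant chain Cd74 was at 14.38 in Ly6C high and 13.18 in Ly6C low cells, the class II chains H2-Aa at 11.62 and 10.40 and H2-Ab1 at 11.497 and 10.32, and the peptide loading chain H2-DMa at 10.50 and 9.33. Of the 7 chains and chaperones 6 were 2-fold lower, and the differences of the 7 ran from -1.31 to -0.89. Ciita, the master regulator of these genes, was at 6.80 and 5.71. The costimulators Cd80 (10.29 and 8.63) and Cd86 (11.89 and 10.65) were lower as well. MHC class I presentation had 0 of 22 genes beyond 2-fold, with a median of -0.23 and B2m at 13.64 and 13.68. On D4 the medians were -0.35 for class II and -0.12 for class I.

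Secreted factors and matrix enzymes included large differences both ways. Of 28 growth and repair factors compared, 4 were higher and 7 lower. Besides Igf1 and Spp1, the higher ones were Pdgfc, a platelet-derived growth factor (6.06 in Ly6C high and 8.05 in Ly6C low cells), and Bmp2 (4.52 and 6.08). Vegfa, which promotes vessel growth, was at 12.26 and 10.96, Areg and Inhba were lower as given above, and Cyr61, a matrix protein of stromal cells, was at 5.87 and 3.20. The other lower members were Il6, Adamts1 (7.64 and 5.69) and Nrg1 (6.67 and 5.58), the last named after its values were seen. Of 30 matrix proteases and inhibitors, 6 were higher and 6 lower, with a median of -0.13 that was 0.03 after quantile normalization. The macrophage elastase Mmp12 was at 8.36 and 10.37 (2.01 ± 0.08), Mmp27 at 5.13 and 7.35, the protease inhibitor Serpinb6a at 8.995 and 10.61 and Timp2 at 11.17 and 12.52. The coagulation factor F10 was at 11.87 and 10.06, Serpinb2, an inhibitor of plasminogen activators, at 9.30 and 7.61, and Timp1 at 10.74 and 9.65. The metalloprotease inhibitors Timp1 and Timp2 were apart in opposite directions, with Timp1 at -0.99 after quantile normalization. Of 29 genes of TGF-beta and Notch signalling, 7 were lower and 0 higher, and 3 of 25 were lower with 5 in both columns. The lower ones included the signal transducer Smad3 (10.05 and 8.45) and the TGF-beta activator Thbs1 (15.71 and 14.15).

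In energy metabolism the members beyond 2-fold were transporters and genes of the hypoxia response. Of 38 genes of glycolysis and the hypoxia response, 5 were lower and 2 higher (18.4% beyond 2-fold, against 7.74% of all genes). The lactate exporter Slc16a3 was at 12.06 in Ly6C high and 10.18 in Ly6C low cells, the glucose transporter Slc2a1 at 10.95 and 9.82, and Ddit4, induced by hypoxia, at 7.36 and 6.22. The higher ones were Car9 (4.39 and 5.54, a difference of 0.99 with 5 added to each value) and Epas1 (8.16 and 9.27). The 77 respiratory chain genes had 0 beyond 2-fold, and their differences ran from -0.32 to 0.77 with a median of 0.09. Of these 77, 48 were highest in D2 Ly6C low cells among the 5 macrophage columns. The 79 ribosomal protein genes also had 0 beyond 2-fold, with a median of -0.17. Of 20 genes of arginine and polyamine metabolism, 2 were lower and 0 higher (10% lower, against 4.03% of all genes). The 2 were the spermine oxidase Smox (12.05 and 10.22) and Ass1 (7.53 and 6.37). Arg1, a marker of alternative activation, was at 12.70 and 13.40.

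Markers of other cell types separated the columns too. Of 28 fibroblast markers found, 19 were compared, with 18 lower in Ly6C low cells, 0 higher and a median of -2.47. With 5 in both columns, 7 of 8 were lower, with a median of -2.38. Col3a1, a fibrillar collagen, was at 9.17 in Ly6C high and 6.41 in Ly6C low cells, and Sparc, a matrix protein, at 9.51 and 6.73. Of these 19 genes, 18 were highest in D4 Ly6C high cells, where Col3a1 was at 14.51. The exception to the lower members was Gsn, gelsolin, at 12.13 and 12.29, which macrophages also make. Summed over the 28 genes on the linear scale, fibroblast markers made up 8131 normalised reads in Ly6C high and 5698 in Ly6C low cells, and 3663 and 674 without Gsn. The genes of basement membrane collagen, Col4a1 (9.62 and 7.01) and Col4a2 (9.06 and 6.42), and the secreted Igfbp7 (8.35 and 5.59) were among the 15 furthest below by the same rule as used for Cd5l. In bulk samples fewer cells of a type and less RNA per cell cannot be told apart.

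Of 21 endothelial markers, 15 were compared, with 9 lower, 0 higher and a median of -1.89, and -0.29 over the 8 at 5 or above in both columns. Besides Ly6c1, which endothelial cells also express, the lower ones were Cldn5 (5.57 and 2.33), Ptprb, Plvap, Flt1, Esam, Egfl7, Pecam1 and Cdh5 (7.67 and 6.08). Kdr, Cav1, Tie1, Eng, Vwf and Fabp4 lay between -0.59 and 0.88. The sums were 2946 normalised reads in Ly6C high and 2543 in Ly6C low cells, and 2361 and 1465 without Fabp4. Of 32 dendritic cell markers, 24 were compared, with 8 lower, 4 higher and a median of -0.47, and with 5 in both columns 3 were lower and 3 higher of 16. The 3 genes of plasmacytoid dendritic cells were furthest apart. Spib, a transcription factor, was at 7.01 and 3.23, Siglech at 7.03 and 3.31 and Ccr9 at 5.99 and 2.64. The sums over the 32 genes were 10106 and 9696. Ly6C is known to be present on plasmacytoid dendritic cells and on endothelium. The sorted cells' content of these types is not given in the sources used here, and the part of these markers in the other differences was not tested.

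Neutrophil markers differed in both directions. Of 28 found, 14 were compared, with 2 higher, 5 lower and a median of -0.12, and with 5 in both columns 2 were higher and 3 lower of 11. The higher ones were S100a9, a subunit of calprotectin (7.36 in Ly6C high and 8.97 in Ly6C low cells), and Mmp9 (8.29 and 9.33). S100a8, which encodes the other subunit, differed by 0.28. The lower ones were Cd177, Lcn2, Trem1, Slpi (10.22 and 8.47) and Prtn3 (5.19 and 3.62). Il1r2, Mmp8, Hdc, Csf3r, Cxcr2 and Retnlg lay between -0.59 and 0.88. Ly6g and Elane were at 0 in both columns, and 14 markers stayed under 5. The sums were 8347 and 5130 normalised reads. They include Trem1 (11.30 and 9.43), the most abundant member compared in Ly6C high cells, and Cd177 (10.23 and 7.39), also a classical monocyte marker here. Of the 14 members compared, 6 were above 0 and 8 below, so the sums do not measure neutrophil content. Myogenic genes were low, with 3 of 30 compared and none of the 3 beyond 2-fold, and Myf5, Myog and Pax7 were at 0 in both columns. Of 24 T and NK cell markers 4 were compared, with 3 lower (Thy1, Klrk1 and Cd4), and of 14 B cell markers 3, with 2 lower (Spib and Cd22). All of these lower genes passed the limit in the Ly6C high column alone. With 5 in both columns each list kept 1 gene, and 0 were lower. Thy1 is also in the fibroblast list and Spib in the dendritic cell list. With 5 added to each value Cd4 was at -0.99. Of 20 mast cell, basophil and eosinophil markers 3 were compared, with Ear2 lower (6.72 and 4.57) and the mast cell chymase Cma1 higher (3.07 and 5.21). Haemoglobin genes Hba-a1 and Hbb-b1 were at 5.23 and 5.26 in Ly6C high and at 3.01 and 3.08 in Ly6C low cells. How much each of these cell types gave to the columns was not tested.

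The D4 columns come from other samples and allow the same genes to be followed. Of 12438 genes compared on D4, 303 were 2-fold higher in Ly6C low cells (2.44%) and 1111 lower (8.93%), and after quantile normalization of the columns 465 were higher and 988 lower. Of the 426 genes higher on D2, 167 were higher on D4, which is 39.2% of the D2 list and 55.1% of the D4 list. Of the 463 lower on D2, 274 were lower on D4, which is 59.2% of the D2 list and 24.7% of the D4 list. The direction alone was kept by 404 of the 426 and by 451 of the 463. The median D4 difference was 0.86 for the higher genes and -1.35 for the lower ones, against 1.36 and -1.55 on D2. Cd5l (2.36 on D4) and Lyve1 (2.09) kept differences over 4-fold, while that of Mcm6 was 0.77.

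Of the 889 genes, 2 were 2-fold apart in opposite directions on the 2 days, S100a9 and A4galt. S100a9 was 1.61 higher in Ly6C low cells on D2 and differed by -1.33 on D4, where it was at 5.04 in Ly6C high and 3.71 in Ly6C low cells. A4galt, a glycolipid enzyme, differed by 1.11 and -1.31. Itgal, at -2.43 on D2, was at -0.44 on D4. The endothelial markers were further apart on D4, with a median of -3.82, while the fibroblast markers were at -2.18. 

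**Figure D5:**
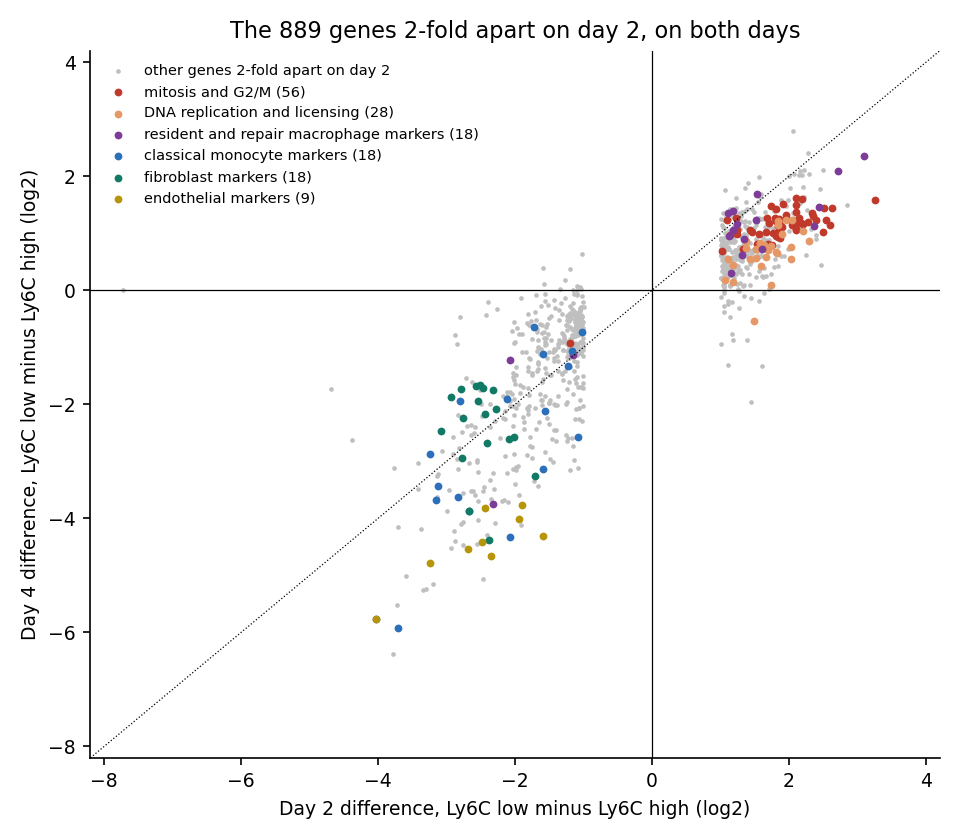
Difference between Ly6C low and Ly6C high (log2) on day 2 (horizontal axis) and day 4 (vertical axis) for the 889 genes at least 2-fold apart on day 2, with 6 gene lists in colour (number of members drawn in brackets) and a dotted line of equal differences. Over the members compared, the median of mitosis genes was 1.77 on day 2 and 1.06 on day 4, and that of endothelial markers -1.89 and -3.82.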

How the data were processed

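Per the labels' protocols, RNA of sorted cells was sequenced from poly-A selected TruSeq libraries. The submitters' processing notes list, without roles, Cufflinks 2.0.2, TopHat2 2.0.7 and mm10. The deposited values are log2 normalised reads that the authors averaged to 1 mean per group, per the file header. No source used here gives their normalization or annotation. With 3 samples per group behind each mean but no sample values, the tests planned for sample values could not be run. Depth per sample is unknown, and reads per value were recovered from the spacing of low values, where 52.6% of those in D2 Ly6C high and 50.2% in D2 Ly6C low lay on the ladders found.

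Differences were computed in Python 3.11.15 with numpy 2.4.6 and pandas 2.3.3, checked on simulated data. Gene identifiers were matched to GENCODE M21 for 36308 of 38087 genes (95.3%), and symbols to RefSeq promoters on GRCm38.p6. Genes to name were drawn from the 15 furthest apart each way, with genes set aside whose higher value was under its column's median. In each list they were drawn from up to 10 members with the largest difference and the 3 with the smallest. Not all of these are named above. Left out of the 15 higher were Nrcam (2.19), Cspg4 (2.14), Arhgap19 (1.76), Gm11223 (1.70) and Pcp4l1 (1.67). Left out of the 15 lower were Slc4a11 (-2.48) and Serpinb10 (-2.47). Of the lists with at most 15 members compared, those of the CSF family, endothelial markers and neutrophil markers are named in full. Other short lists and the subunits of some complexes are given in part, or as counts and ranges. Genes and lists were chosen with earlier results of these data known. The 9 alternatives tried concern scaling, pseudocount, low values and gene class. Of the 50 lists 49 had members compared, and mitochondrially encoded genes had none. Among lists not described above, fatty acid synthesis had 0 higher and 2 lower of 18, or 11.1% lower against 4.03% of all genes. Fc receptors had 0 and 2 of 14 (14.3% lower), with Sirpb1a at -2.04 and Pilrb1 at -1.69. Immediate early genes had 0 and 3 of 25 (12% lower). NRF2 and antioxidant genes (0 and 1 of 31, 3.23% lower) and heat shock genes (0 and 1 of 23, 4.35% lower) were near the share of all genes. S100 and annexin genes had 1 and 0 of 16, or 6.25% beyond 2-fold against 7.74% of all genes.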

Additional observations from a re-analysis of the deposited data

How the results depend on the processing

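No paired analysis was possible because the deposited table holds 1 mean per group, and for the same reason no replicate could be left out. The limit on low values moved the counts most. Without it, or with a limit of 1, 895 genes were higher and 1349 lower, with 667 lower on both days. A limit of 7 gave 186 higher and 262 lower, with 84 higher and 141 lower on both days. A limit of 5 in both columns gave 237 and 278, with 96 and 141. Under quantile normalization, a median difference of 0, a pseudocount of 0.5 or 5, or protein-coding genes alone, both day 2 counts stayed within 1.5 times of 426 and 463. Quantile normalization of both days, chosen after seeing the data, gave 208 higher and 252 lower on both days. Of 366 values for the 42 genes tried, 18 moved beyond counting error and 0 of those 2-fold apart changed sign, while Csf1r (-0.21) was at 0.02 and Spp1 (1.19) at 0.51 under quantile normalization. Of 1314 list values (medians and counts), 105 moved. The median of a list changed sign in 15 cases over 8 lists, 12 of them for 6 lists whose median was under 2-fold from 0. The mast cell, basophil and eosinophil median (-0.38 over 3 genes) was 1.36 with a limit of 1 and 0.62 without one, and the other 10 of the 12 lay between -0.13 and 0.21. The remaining 3 concern 2 lists. The erythroid and platelet median (-1.08 over 4 genes) was 0.47 over the 2 genes left with a limit of 7 or with 5 in both columns. The T and NK cell median (-1.35) was 0.31 over the 1 gene left with 5 in both. At a value of 5 a difference under 0.30 lies within counting error.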
